A study of Mus musculus with 4 samples.

Results

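The serpins were followed on 4 arrays of mouse embryonic fibroblasts. Members were all gene names on the array's non-control probes that start with Serpin, a clade letter from a to i and a number, giving 54 genes on 73 probes, of 27745 gene names on 41174 probes. The rule used names only, and it was written with earlier results of these data known. The 4 conditions were fibroblasts that carried Oct3/4, Sox2, Klf4, c-Myc by transduction and were grown for 72 hours (day 4 in the label) under 5% O2, the same four-factor cells under 21% O2, untransduced fibroblasts grown for 10 days under 5% O2, and untransduced fibroblasts grown for 10 days under 21% O2. Each condition had 1 array, so differences are given with no test and no estimate of the spread between cultures. Transduction, time in culture, slide and scan changed together between the cultures and cannot be told apart, whereas both oxygen levels of a culture lay on 1 slide and were read in 1 scan. The vector, the mouse strain and the number of embryos are not given in the sources used here.

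Serpins are a superfamily of proteins that mostly inhibit serine proteases by a suicide mechanism: the protease cuts an exposed reactive loop, the serpin snaps into a new fold and the enzyme stays trapped. Clade A holds secreted plasma-type inhibitors such as antitrypsin and antichymotrypsin, clade B the intracellular ovalbumin-like serpins, clades C and D the thrombin inhibitors antithrombin and heparin cofactor II, clade E the nexins, clade F a neurotrophic and an antiplasmin serpin, clade G the C1 inhibitor, clade H the collagen chaperone and clade I the neuroserpins. Fibroblasts use several of them to limit proteolysis around the cell.

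Levels below are log2 of the scanner's processed signal minus the array's own 75th percentile, so that 0 is the signal of that percentile, and they compare one gene between arrays but not one gene with another. A gene was measured in a comparison when its brightest probe was well above background on both arrays, and it was called higher or lower when the arrays then differed at least 2-fold (1 on the log2 scale). The error after ± is the extraction software's own error of the 2 spots combined on the log2 scale. It covers the spots and not the cultures. For bright genes it was 0.20 whatever the gene, so there it is not a spread measured for that gene. Replicate spots of 1 probe varied by an SD of 0.0673 to 0.114. RNA came from bulk cultures, where fewer cells of a type and less RNA per cell cannot be told apart.

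Promoters of some serpins of the oxygen results are shown first. Serpinb7 and Serpinb10 were lower at 5% O2 in both cultures and Serpinb11 in four-factor cells. Serpinb2 and Serpinb8 are their neighbours on chromosome 1, and Serpind1 was higher at 5% O2 in untransduced fibroblasts. The sequences are RefSeq's on GRCm38.p6 and run from 250 bases before to 50 bases after the start. Capitals mark matches, on either strand, to 5 motifs. The core of the hypoxia-inducible factor element was searched as ACGTG and, separately, as GCGTG. The E-box was CACGTG, which overlaps ACGTG whenever it occurs. The AP-1 element was searched as TGANTCA, with any base at N, which is looser than its usual form with C or G there. The TATA element was TATAAA.
Serpinb7 (chr1:107422439-107422738, plus strand): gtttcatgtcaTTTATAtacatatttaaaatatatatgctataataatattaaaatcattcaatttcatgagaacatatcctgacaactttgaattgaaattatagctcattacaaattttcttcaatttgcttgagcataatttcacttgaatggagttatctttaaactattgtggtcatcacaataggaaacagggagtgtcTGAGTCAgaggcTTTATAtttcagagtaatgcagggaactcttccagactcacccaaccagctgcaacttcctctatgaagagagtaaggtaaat
Serpinb10 (chr1:107528753-107529052, plus strand): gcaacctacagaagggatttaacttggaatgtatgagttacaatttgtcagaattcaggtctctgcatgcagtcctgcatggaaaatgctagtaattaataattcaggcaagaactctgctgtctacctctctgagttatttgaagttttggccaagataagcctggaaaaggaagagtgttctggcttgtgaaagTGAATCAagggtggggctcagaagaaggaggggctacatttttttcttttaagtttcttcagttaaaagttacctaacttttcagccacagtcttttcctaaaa
Serpinb11 (chr1:107362064-107362363, plus strand): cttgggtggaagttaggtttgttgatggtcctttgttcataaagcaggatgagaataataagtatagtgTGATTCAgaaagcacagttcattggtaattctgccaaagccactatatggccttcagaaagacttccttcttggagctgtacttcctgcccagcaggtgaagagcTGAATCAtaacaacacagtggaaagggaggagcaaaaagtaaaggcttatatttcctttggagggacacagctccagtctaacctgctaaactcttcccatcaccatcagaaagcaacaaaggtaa
Serpinb2 (chr1:107511173-107511472, plus strand): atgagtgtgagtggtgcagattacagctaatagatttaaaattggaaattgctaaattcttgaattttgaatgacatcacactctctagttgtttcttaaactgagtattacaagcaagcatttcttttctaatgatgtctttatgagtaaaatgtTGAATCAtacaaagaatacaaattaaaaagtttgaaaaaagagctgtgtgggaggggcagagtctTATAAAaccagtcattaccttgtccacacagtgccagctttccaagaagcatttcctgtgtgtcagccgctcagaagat
Serpinb8 (chr1:107589756-107590055, plus strand): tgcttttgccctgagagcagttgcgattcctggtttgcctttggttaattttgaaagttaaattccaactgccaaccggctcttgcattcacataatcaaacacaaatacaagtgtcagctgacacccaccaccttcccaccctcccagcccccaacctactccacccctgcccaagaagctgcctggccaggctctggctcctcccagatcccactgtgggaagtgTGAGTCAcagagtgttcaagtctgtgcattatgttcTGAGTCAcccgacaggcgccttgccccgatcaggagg
Serpind1 (chr16:17331121-17331420, plus strand): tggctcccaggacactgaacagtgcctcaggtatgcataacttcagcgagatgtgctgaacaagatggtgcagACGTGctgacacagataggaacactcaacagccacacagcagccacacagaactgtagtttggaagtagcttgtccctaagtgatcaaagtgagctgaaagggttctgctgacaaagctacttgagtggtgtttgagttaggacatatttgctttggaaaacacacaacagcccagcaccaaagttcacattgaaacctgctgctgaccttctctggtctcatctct

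TGANTCA was found in the promoters of Serpinb7, Serpinb10, Serpinb11, Serpinb2 and Serpinb8, and also of Serpinb5 and Serpinb12. These are 7 of the 11 clade B genes of chromosome 1 with a promoter in the table. It was found in 0 of 11 clade B genes of chromosome 13, in Serpina1b and Serpina1d on chromosome 12, and in 19.0% of 63 serpin promoters, against 7.81% of all 32851 promoters of the same length. Counted from the start, the match began at -45 in Serpinb7 and at -54 in Serpinb10. Serpinb7 and Serpinb8 hold the motif as TGAGTCA. Serpinb10, Serpinb11, Serpinb2, Serpinb5 and Serpinb12 hold it only with A or T at N. No clade B promoter shown holds a hypoxia-element core or the E-box, while Serpind1 holds ACGTG at -177. ACGTG or GCGTG was present in 19.0% of 63 serpin promoters, against 43.8% of all promoters. CACGTG was in 0 serpin promoters, against 7.15% of all, and TATAAA in 28.6%, against 13.6%. A match is a description of these letters, not a site or a cause. Of the 54 members, 44 had a promoter in the table, with 52 promoters between them. The 63 serpin promoters above are thus not those of the members alone. Serping1 is named only.

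Of the 54 serpins, 20 were well above background on all 4 arrays, 15 on 1 to 3 arrays and 19 on none. Clade B was the largest, with 16 of 24 genes above background on at least 1 array, and clade A had 10 of 20. The single genes of clades C, D, G and H were each above background on at least 1 array, as were both genes of clades E and F and 1 of 2 genes of clade I. By array, 30 serpins passed for four-factor cells at 5% O2, 31 for four-factor cells at 21% O2, 22 for untransduced cells at 5% O2 and 21 for untransduced cells at 21% O2. As shares these were 55.6%, 57.4%, 40.7% and 38.9% of the serpins, beside 66.9%, 66.6%, 57.6% and 56.5% of all gene names. The weakest signal called above background was 9.64 and 9.86 units on the four-factor arrays and 24.9 and 26.5 units on the untransduced arrays, so a weak gene could pass on the four-factor arrays at a signal that could not pass on the others.

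**Figure D1:**
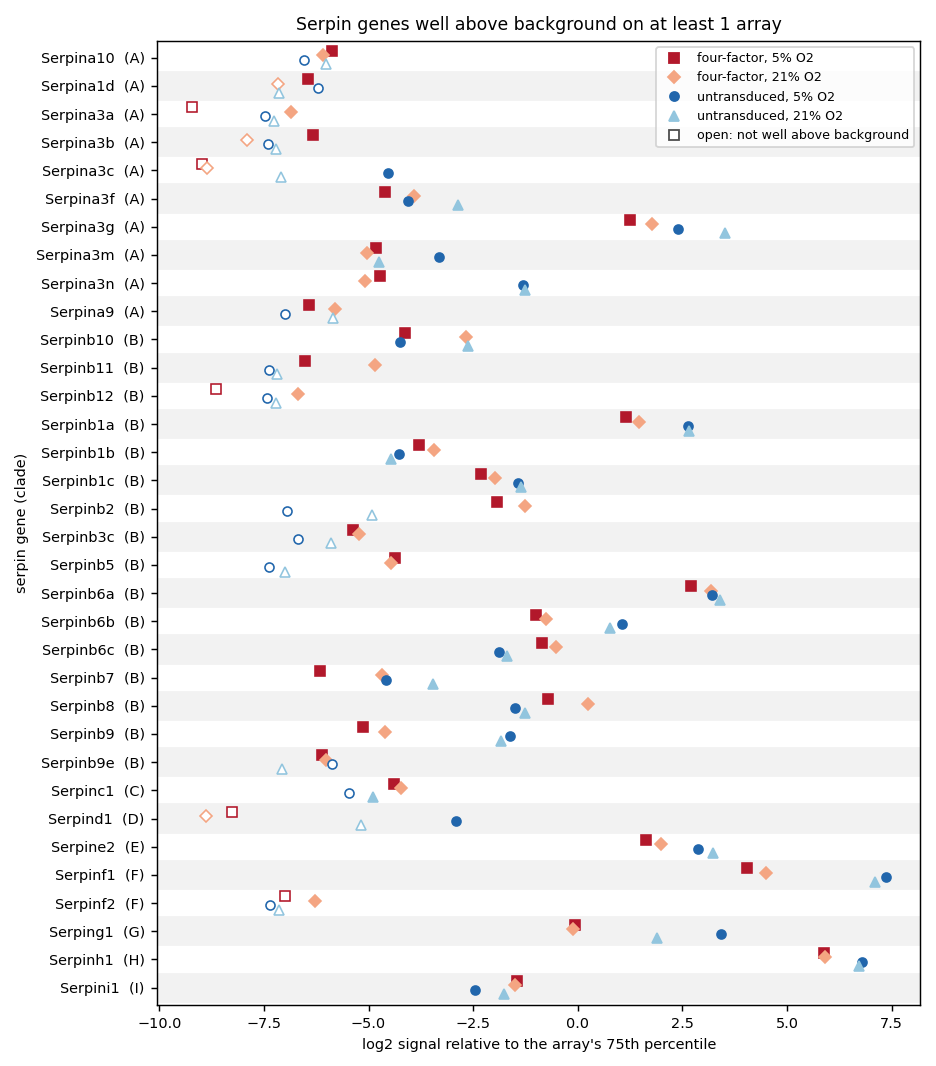
Log2 signal relative to each array's 75th percentile (horizontal axis) of the serpins well above background on at least 1 array, listed by clade; colours and shapes are the 4 conditions, and open symbols are not well above background. The untransduced values of Serpinf1 and Serpina3n lie well to the right of their four-factor values.

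Mouse fibroblast identity was checked on 12 fibroblast markers, among them Col1a1, Dcn and Pdgfrb, and 12 of 12 were above background on every array. Their summed scaled signal (in multiples of the 75th percentile) was 759 and 876 on the four-factor arrays (5%, 21% O2), and 1351 and 1414 on the untransduced arrays (5%, 21% O2). Markers of other cells are given beside the results that they move with.

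In four-factor cells the serpins were mostly somewhat lower at 5% than at 21% O2, and the largest differences lay in weak clade B genes of chromosome 1. Of 28 serpins measured on both arrays, 22 were below 0 and 6 above, with a median difference of -0.34, beside -0.01 over 18006 genes. Of all these genes 51.8% were below 0. At least 2-fold lower were 3 serpins, Serpinb7, Serpinb10 and Serpinb11, in a comparison where 1.07% of all genes were. With another background correction (normexp, below) all 3 were under 2-fold, and 0.205% of all genes were still at least 2-fold lower. At least 2-fold higher were 0 serpins, where 1.25% of all genes were. Among the 6664 genes as weak as these 3 (mean level between -7 and -2, a window set after the values were seen), 2.24% were at least 2-fold lower and 2.09% at least 2-fold higher.

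In untransduced fibroblasts the serpins moved in both directions. At least 2-fold lower at 5% O2 were 5 of 20 measured, among them Serpina3g, Serpina3f, Serpinb7 and Serpinb10, beside 1.72% of all genes. Serping1 and Serpina3m were at least 2-fold higher, which is 2 of 20, beside 2.54% of all genes. Serpind1 was higher by its lower bound, where 21.2% of genes above background at 5% O2 only passed that bound. The median over the 20 serpins was -0.13, beside -0.04 over 15253 genes. Of the serpins 13 were below 0 and 7 above, where 55.2% of all genes were below 0. Among weak genes of the same window, 3.72% were at least 2-fold lower and 5.42% at least 2-fold higher.

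Of the 20 serpins measured on all 4 arrays, 13 had an oxygen difference of the same sign in both cultures, 11 below 0 and 2 above. The same share over all genes was not counted. Serpinb7 and Serpinb10 were at least 2-fold lower in both, where 30 of 14980 genes (0.200%) were. With the normexp correction each was under 2-fold in both cultures. At least 2-fold higher in both were 0 serpins, where 0.220% of genes were.

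**Figure D2:**
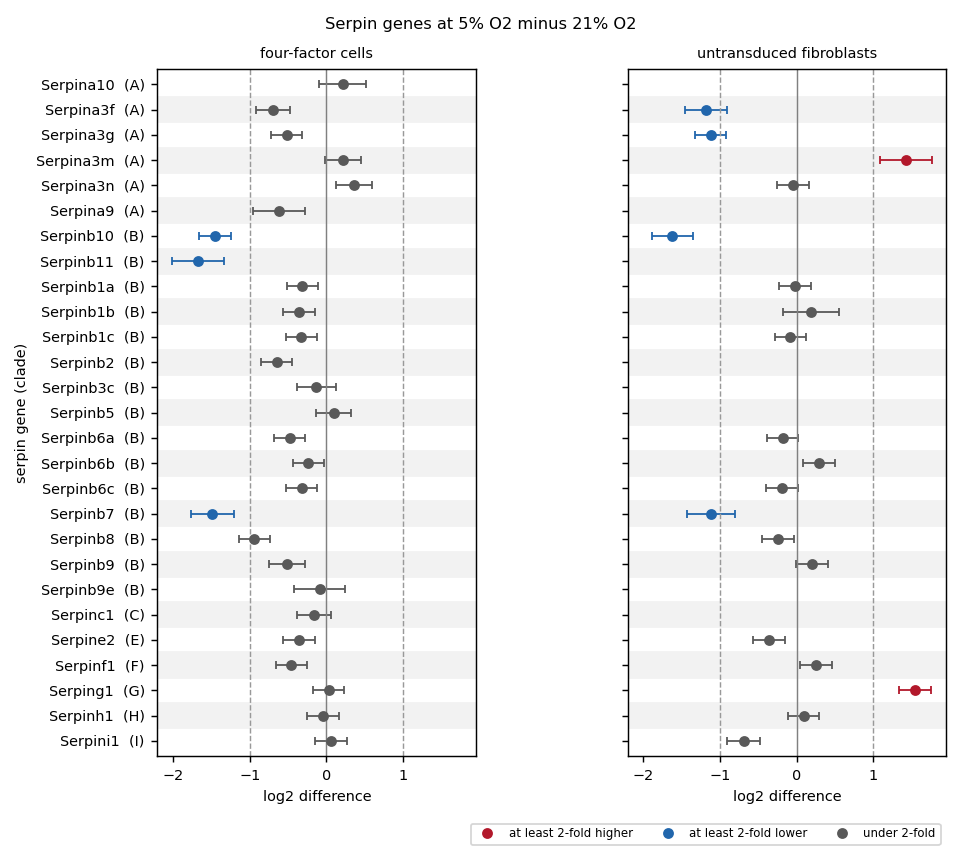
Log2 difference of each measured serpin at 5% minus 21% O2 (horizontal axis) in four-factor cells (left) and untransduced fibroblasts (right). Points are single comparisons of 1 array with 1 array, bars the spot error, and dashed lines 2-fold; most points of the four-factor panel lie below 0, and in untransduced fibroblasts Serping1 (1.54) and Serpina3m (1.42) lie above the 2-fold line.

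Serpine2 encodes protease nexin 1, which inhibits thrombin and urokinase at the cell surface. Its level was 1.62 in four-factor cells at 5% O2, against 1.98 in four-factor cells at 21% O2. It was 2.87 in untransduced fibroblasts at 5% O2, against 3.23 in untransduced fibroblasts at 21% O2. Four-factor cells were lower by the same amount at both oxygen levels, -1.25 ± 0.20 at 21% and at 5% O2, and the oxygen difference was -0.36 ± 0.20 in both cultures. Serpini1, neuroserpin, an inhibitor of tissue plasminogen activator known from neurons, had levels of -1.45 in four-factor cells at 5% O2 and -1.51 in four-factor cells at 21% O2. In untransduced fibroblasts it had -2.46 at 5% O2 and -1.77 at 21% O2. It was 1.01 ± 0.21 higher in four-factor than in untransduced cells at 5% O2, and 0.81 with normexp background correction, which adds an offset that compresses weak signals. Summed neural and glial markers were 13.1 and 11.4 on the four-factor arrays (5%, 21% O2), and 9.17 and 6.78 on the untransduced arrays (5%, 21% O2). Gene by gene they were mixed. Of 7 measured, 2 were at least 2-fold higher and 4 lower in four-factor cells at 5% O2 (median -1.22). At 21% O2, 2 were higher and 3 lower (median -0.58). Of all genes, 17.1% were higher and 20.0% lower at 5% O2, and 11.8% and 16.6% at 21% O2. The part of these markers in the Serpini1 level was not tested.

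**Figure D3:**
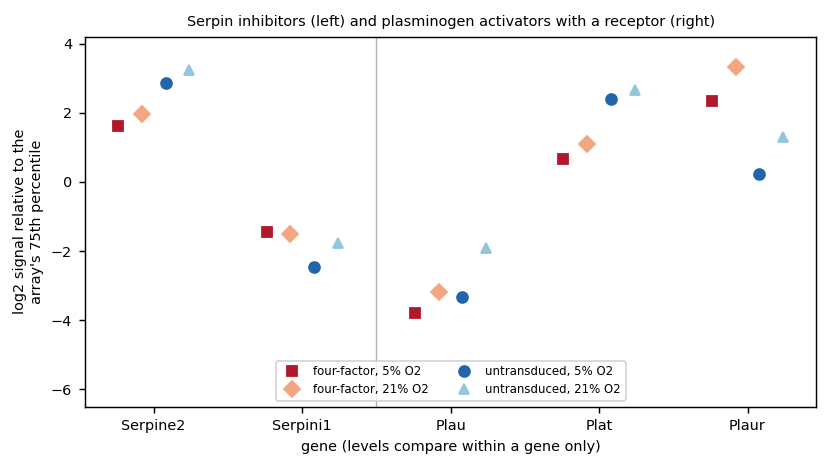
Log2 signal relative to each array's 75th percentile (vertical axis) of Serpine2 and Serpini1, serpins that inhibit plasminogen activators (left of the line), and of the activators Plau and Plat with the urokinase receptor Plaur (right), in the 4 conditions. Plau and Plaur lie lower at 5% than at 21% O2 in untransduced fibroblasts, with differences of -1.41 and -1.08.

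The proteases and receptors of plasminogen activation were set beside these inhibitors from a list of 20 genes. At 5% against 21% O2, 0 of 16 measured genes were at least 2-fold apart in four-factor cells. In untransduced fibroblasts 1 of 17 was higher and 4 lower. Of all genes, 1.25% were higher and 1.07% lower in four-factor cells, and 2.54% and 1.72% in untransduced fibroblasts. Four-factor against untransduced cells had 2 higher and 7 lower of 16 at 21% O2, and 2 higher and 5 lower of 16 at 5% O2. Of all genes, 11.8% were higher and 16.6% lower at 21% O2, and 17.1% and 20.0% at 5% O2. Lrp8, a lipoprotein receptor family member, was 2.18 higher in four-factor cells at 21% O2 and 3.49 higher at 5% O2. Vtn, vitronectin, an adhesive plasma and matrix protein, was 2.86 higher at 5% O2 in untransduced fibroblasts and not above background in four-factor cells. Lrp1, the receptor that clears serpin-protease complexes, differed by -1.96 at 21% O2 and -2.50 at 5% O2 between four-factor and untransduced cells. Mmp2, a gelatinase, differed by -2.23 and -2.43 in the same comparisons.

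The activators and their receptor are named although they fell outside the naming rule, after their values were seen. Plau, urokinase, differed by -0.60 between 5% and 21% O2 in four-factor cells and by -1.41 in untransduced fibroblasts. Plaur, its receptor, differed by -0.99 in four-factor cells and by -1.08 in untransduced fibroblasts. Plat, the tissue activator, differed by -0.43 and -0.24 in the same order of cultures. Activators and receptor were thus all below 0 in both oxygen comparisons. Between four-factor and untransduced cells Plaur was 2.03 higher at 21% O2 and 2.12 higher at 5% O2, whereas Plat differed by -1.57 and -1.76.

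Serping1 encodes the C1 inhibitor, which blocks the complement proteases C1r and C1s and plasma kallikrein. Its probe lies on chromosome 2 (mm8, 84566650 to 84568156, minus strand). Its level was -0.07 in four-factor cells at 5% O2, against -0.10 in four-factor cells at 21% O2. It was 3.42 in untransduced fibroblasts at 5% O2, against 1.88 in untransduced fibroblasts at 21% O2. Both four-factor arrays lay below both untransduced arrays, and the untransduced culture at 5% O2 stood highest. The oxygen difference was 0.03 ± 0.20 in four-factor cells and 1.54 ± 0.20, or 2.91-fold, in untransduced fibroblasts. Four-factor cells were lower by 3.96-fold at 21% O2 and by 11.3-fold at 5% O2.

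A list of complement and contact system genes was set beside Serping1. In untransduced fibroblasts 6 of 12 measured were at least 2-fold higher at 5% O2, beside 2.54% of all genes. The 6 were C1qa, C1qb, C1qc, C2, C3 and C4b, of which C1qa, C1qb and C1qc are also macrophage markers here. The 2 lower, beside 1.72% of all genes, were Masp1 (-1.24) and Kng1 (-1.05). In four-factor cells 0 of 10 were higher and 0 lower. C2 differed by 2.08, C3 by 1.59 and C4b by 1.14 in untransduced fibroblasts, all higher at 5% O2. The direct targets of the inhibitor, C1s (0.76) and C1ra (0.62), were under 2-fold. Four-factor against untransduced cells had 0 higher and 7 lower of 10 at 21% O2, beside 11.8% and 16.6% of all genes. At 5% O2, 1 was higher and 8 lower of 10, beside 17.1% and 20.0%, and C1s differed by -3.46. Most macrophage markers moved with Serping1. Of 13 on the array, 12 were above background on both untransduced arrays, and 11 of these were at least 2-fold higher at 5% O2 (median 1.48). Their summed scaled signal was 0.73 at 5% O2 and 0.89 at 21% O2 in four-factor cells, whereas it was 36.5 at 5% O2 and 16.6 at 21% O2 in untransduced fibroblasts. Adgre1, Mrc1, C1qa, C1qc, Fcgr1, Ptprc and Cx3cr1 were not above background in four-factor cells. Of 6 measured in both cultures, 4 were at least 2-fold lower in four-factor cells at 21% O2 and 5 at 5% O2. Cd68 was 0.85 higher in four-factor cells at 21% O2, and Cd14 differed by -0.41 at 21% O2 and -0.79 at 5% O2. The part of the macrophage markers in the Serping1 differences was not tested. Of 6 adipocyte markers, 3 were measured, all higher at 5% O2 in untransduced fibroblasts, 2 of them at least 2-fold. Adipoq and Plin1 were above background on the untransduced array at 5% O2 only, and Cfd on none. The sum, most of it Lpl, was 1.97 and 2.03 on the four-factor arrays (5%, 21% O2), and 88.9 and 39.6 on the untransduced arrays (5%, 21% O2).

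Serpinf1 encodes pigment epithelium-derived factor, a secreted serpin that inhibits no protease and is known as an inhibitor of blood vessel growth. Its level was 4.04 in four-factor cells at 5% O2, against 4.50 in four-factor cells at 21% O2. It was 7.36 in untransduced fibroblasts at 5% O2, against 7.11 in untransduced fibroblasts at 21% O2. The cultures did not overlap. Four-factor cells were lower by 6.09-fold at 21% O2 and by 9.94-fold at 5% O2, and the second Serpinf1 probe gave -3.15 and -3.89 on the log2 scale. The oxygen difference was -0.46 ± 0.20 in the four-factor culture and 0.25 ± 0.20 in the untransduced one. Serpinf2, the plasmin inhibitor antiplasmin, was above background only on the four-factor array at 21% O2, at -6.28. That is below the weakest level that passed on the untransduced arrays (-5.13 at 5% O2, -4.93 at 21% O2).

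Serpinh1 encodes the collagen chaperone of the endoplasmic reticulum, a serpin that inhibits no protease and binds the collagen triple helix while it folds. Its level was 5.87 in four-factor cells at 5% O2, against 5.92 in four-factor cells at 21% O2. It was 6.80 in untransduced fibroblasts at 5% O2, against 6.71 in untransduced fibroblasts at 21% O2. The oxygen differences, -0.04 ± 0.20 and 0.09 ± 0.20, were within the spot error, and four-factor cells differed from untransduced cells by -0.79 ± 0.20 at 21% O2 and -0.93 ± 0.20 at 5% O2. Of 31 collagens and folding genes measured with it, 18 were at least 2-fold lower in four-factor cells at each oxygen level and 0 higher. Over all genes 16.6% were lower and 11.8% higher at 21% O2, and 20.0% and 17.1% at 5% O2. The medians of the 31 were -1.12 at 21% O2 and -1.16 at 5% O2. Col5a3, a fibrillar collagen chain, differed by -2.34 and -3.38 in these comparisons, Col12a1 by -2.75 and -2.86, Col11a1 by -2.49 and -2.62, and Col6a2 by -1.85 and -2.51. At 5% against 21% O2, 2 of the 31 were at least 2-fold higher in four-factor cells, the prolyl hydroxylase subunits P4ha1 (1.05) and P4ha2 (1.11). In untransduced fibroblasts 1 was, the lysyl hydroxylase Plod1 (1.03).

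The thrombin inhibitors of clades C and D were weak. Serpinc1, antithrombin, had levels of -4.40 and -4.23 on the four-factor arrays (5%, 21% O2) and -4.89 in untransduced fibroblasts at 21% O2, and it was not above background in untransduced fibroblasts at 5% O2. It differed by 0.66 between four-factor and untransduced cells at 21% O2, but its second probe went the other way, by -0.48. Serpind1, heparin cofactor II, was above background in untransduced fibroblasts at 5% O2 only, at -2.91. It was at least 4.06-fold higher there than at 21% O2, and at least 15.8-fold lower in four-factor than in untransduced cells at 5% O2. At least 2-fold lower by a bound at 5% O2 were 99.2% of genes above background in untransduced cells only. Such a bound sets the measured level against the weakest signal above background on the other array, or the gene's own signal there if that was higher. Serpind1 is known as a liver product. Of 10 liver markers, 1 was above background in untransduced fibroblasts, Trf (transferrin), which was 1.02 higher at 5% O2 there and differed by -1.15 between four-factor and untransduced cells at 5% O2, the same directions as Serpind1. Alb, Apoa1, Apoa2, Apob and Ttr were not above background there. Ahsg went the other way, above background in four-factor cells only. It was at least 8.04-fold higher in four-factor than in untransduced cells at 21% O2, and at least 19.5-fold higher at 5% O2. Summed liver markers were 0.69 and 0.44 on the four-factor arrays (5%, 21% O2), and 0.26 and 0.17 on the untransduced arrays (5%, 21% O2). Their part in the Serpind1 level was not tested.

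Of the coagulation genes, 1 of 13 measured was at least 2-fold higher and 1 lower at 5% O2 in four-factor cells. In untransduced fibroblasts 1 of 9 was higher and 1 lower. All genes had 1.25% higher and 1.07% lower in four-factor cells, and 2.54% and 1.72% in untransduced fibroblasts. Four-factor against untransduced cells had 0 higher and 4 lower of 9 at 21% O2, and 0 higher and 6 lower of 9 at 5% O2. All genes had 11.8% higher and 16.6% lower at 21% O2, and 17.1% and 20.0% at 5% O2. F13a1, the fibrin-crosslinking subunit that macrophages also make, was 3.78 higher at 5% O2 in untransduced fibroblasts and differed by -6.07 between four-factor and untransduced cells at 5% O2. Thbd, thrombomodulin, differed by -1.98 at 21% O2 and -2.84 at 5% O2 between four-factor and untransduced cells. Tfpi, the tissue factor pathway inhibitor, differed by -1.50 and -2.10 and F3, tissue factor, by -1.14 and -2.09 in these comparisons.

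Clade B genes lie in 2 groups, on chromosomes 1 and 13. Serpinb7, also called megsin from its discovery in human mesangial cells, had levels of -6.17 in four-factor cells at 5% O2 and -4.68 in four-factor cells at 21% O2. In untransduced fibroblasts it had -4.57 at 5% O2 and -3.45 at 21% O2. It was lowest in four-factor cells at 5% O2 and highest in untransduced fibroblasts at 21% O2. The oxygen difference was -1.49 ± 0.28 in the four-factor culture and -1.12 ± 0.31 in the untransduced one, and four-factor cells differed from untransduced cells by -1.23 ± 0.24 at 21% O2 and -1.59 ± 0.34 at 5% O2. The probe is on chromosome 1 (mm8, 109279746 to 109279806, plus strand).

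Serpinb10, bomapin, known from blood-forming cells, had levels of -4.12 in four-factor cells at 5% O2 and -2.67 in four-factor cells at 21% O2. In untransduced fibroblasts it had -4.25 at 5% O2 and -2.62 at 21% O2. Both 5% O2 arrays lay below both 21% O2 arrays, and the cultures hardly differed (-0.05 ± 0.21 at 21% O2 and 0.13 ± 0.27 at 5% O2). The oxygen difference was -1.45 ± 0.21 in the four-factor culture and -1.62 ± 0.27 in the untransduced one, 2.73-fold and 3.08-fold. A second Serpinb10 probe was not above background on any array. The measuring probe is at mm8 chromosome 1, 109374360 to 109374419, plus strand.

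Serpinb11 had levels of -6.52 in four-factor cells at 5% O2 and -4.85 in four-factor cells at 21% O2, a difference of -1.67 ± 0.34, and was not above background in untransduced fibroblasts. With normexp correction all 3 four-factor calls were under 2-fold. The differences were then -0.26 for Serpinb7, -0.80 for Serpinb10 and -0.15 for Serpinb11 in four-factor cells, and -0.52 for Serpinb7 and -0.95 for Serpinb10 in untransduced fibroblasts. All 5 stayed below 0.

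Serpinb8, a clade B serpin that inhibits furin in human cells, had levels of -0.71 in four-factor cells at 5% O2 and 0.23 in four-factor cells at 21% O2. In untransduced fibroblasts it had -1.51 at 5% O2 and -1.27 at 21% O2. Its oxygen difference was -0.94 ± 0.20 in the four-factor culture and -0.24 ± 0.20 in the untransduced one, and it was 2.83-fold higher in four-factor than in untransduced cells at 21% O2. Serpinb2, plasminogen activator inhibitor 2, had levels of -1.92 in four-factor cells at 5% O2 and -1.27 in four-factor cells at 21% O2, and was not above background in untransduced fibroblasts. It was at least 12.5-fold higher in four-factor than in untransduced cells at 21% O2, and at least 9.25-fold higher at 5% O2. It was the 1 serpin higher by a bound in each comparison, where 11.4% and 13.5% of genes above background in four-factor cells only were. Serpinb5, maspin, which inhibits no protease, was above background in four-factor cells only, at -4.36 at 5% O2 and -4.46 at 21% O2, with lower bounds of 1.70-fold at 5% O2 and 1.39-fold at 21% O2.

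Squamous epithelium expresses several of these chromosome 1 serpins, and its markers were also checked. Four-factor against untransduced cells had 2 higher and 1 lower of 5 at 21% O2, beside 11.8% and 16.6% of all genes. At 5% O2, 2 were higher and 1 lower of 6, beside 17.1% and 20.0%. Krt5 and Krt6a were above background in four-factor cells and not in untransduced fibroblasts. Trp63 differed by -2.51 at 21% O2 and -3.09 at 5% O2, lower in four-factor cells, and Dsg3 was above background on no array. Krt10, which made most of the untransduced sum, differed by -0.36 and -0.66. The 10 markers summed to 4.01 and 4.03 on the four-factor arrays (5%, 21% O2), and 3.26 and 2.59 on the untransduced arrays (5%, 21% O2). Their part in the clade B levels was not tested.

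In the order of the gene table, the 14 serpins of chromosome 1 run from Serpine2 through Serpinb5, Serpinb12, Serpinb13, the Serpinb3 genes, Serpinb11, Serpinb7, Serpinb2, Serpinb10 and Serpinb8 to Serpinc1. In four-factor cells 9 of them were measured in the oxygen comparison, and 8 were below 0, with a median of -0.65 and a range of -1.67 to 0.09. The neighbours Serpinb11, Serpinb7, Serpinb2, Serpinb10 and Serpinb8 ran from -1.67 to -0.65, while Serpinb5 at one end of the group had 0.09. In untransduced fibroblasts 4 were measured and 4 were below 0, with a median of -0.74. Serpinb2 (-0.65) and Serpinb8 (-0.94) were under 2-fold, and none of the 5 was at least 2-fold lower with normexp. The promoters of all 5 hold TGANTCA, and so does that of Serpinb5, at -140, which was not lower. On chromosome 13, 8 of 8 measured clade B genes were below 0 in four-factor cells, but by little, -0.51 to -0.09. In untransduced fibroblasts 4 of 7 were below 0 and 3 above, between -0.19 and 0.29. On chromosome 12, which holds clade A, 3 of 6 were above 0 and 3 below in four-factor cells.

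**Figure D4:**
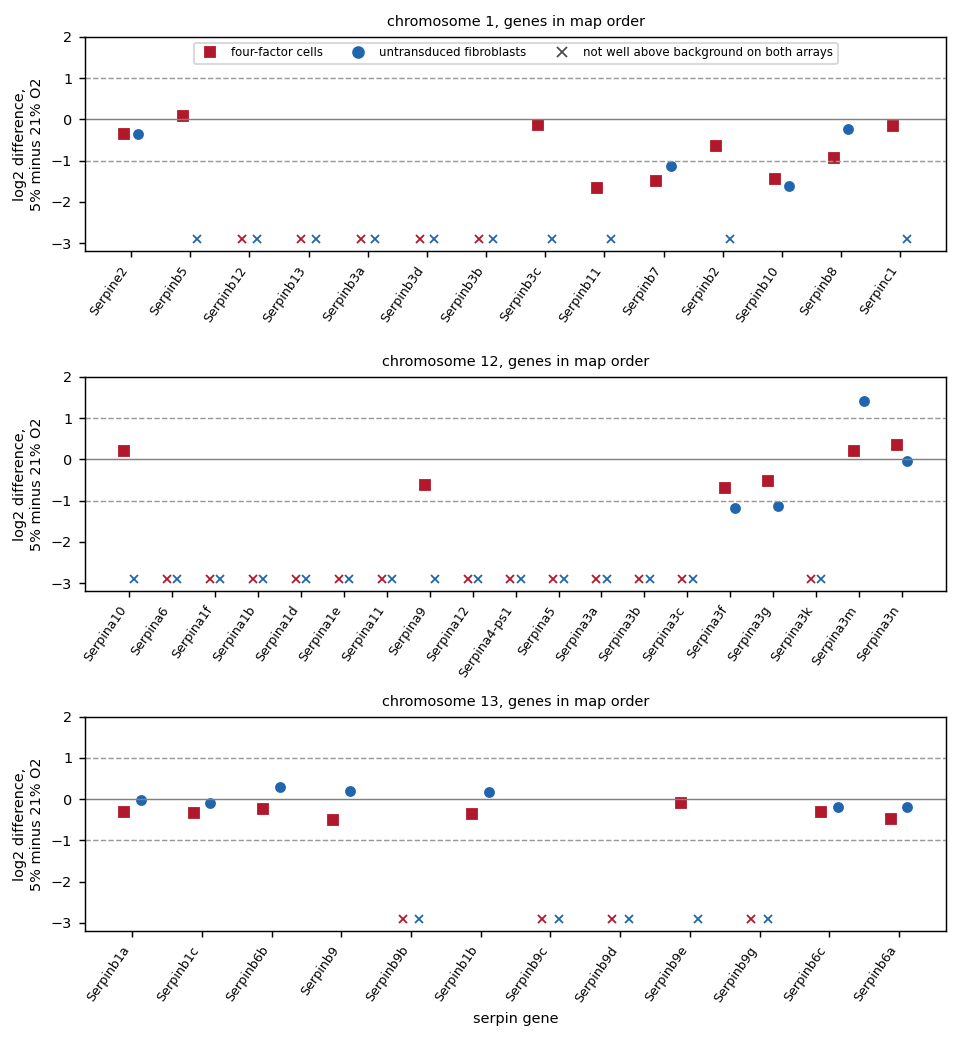
Log2 difference at 5% minus 21% O2 (vertical axis) of the serpins of chromosomes 1, 12 and 13 in gene order (horizontal axis, evenly spaced), in four-factor cells and untransduced fibroblasts; crosses mark genes not above background on both arrays, and dashed lines 2-fold. Serpinb11, Serpinb7 and Serpinb10 lie below the 2-fold line on chromosome 1, whereas the 8 measured genes of chromosome 13 stay between -0.51 and -0.09 in four-factor cells.

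Between four-factor and untransduced cells the serpins were more often lower than higher. At 21% O2, 10 of 21 measured were at least 2-fold lower, beside 16.6% of all genes, and 3 were at least 2-fold higher, beside 11.8% of all genes. At 5% O2, 10 of 20 were lower, beside 20.0% of all genes, and 3 were higher, beside 17.1%. Lower by a bound at 5% O2 were a further 2, Serpind1 and Serpina3c, where 99.2% of genes above background in untransduced cells only were. The serpin medians were -0.79 at 21% O2 and -1.04 at 5% O2, both beside an all-gene median of -0.02. Lower at both oxygen levels were 9 of the 20 measured on all arrays: Serpina3g, Serpina3n, Serpinb1a, Serpinb6b, Serpinb7, Serpinb9, Serpine2, Serpinf1 and Serping1, where 14.2% of genes were. Higher at both was Serpinb6c alone among these 20, where 10.6% were, and with normexp correction it was under 2-fold at 5% O2 (0.91). The 2 comparisons share no array. Most fibroblast markers moved with these serpins. In four-factor cells 8 of 12 were at least 2-fold lower at each oxygen level and 0 at least 2-fold higher. Their medians were -1.73 at 21% O2 and -1.76 at 5% O2. Lum differed by -5.60 and -6.31, Dcn by -3.26 and -4.75 and Postn by -3.94 and -4.20 in these comparisons. Vim (0.50 and 0.56) and S100a4 (0.40 and 0.86) went the other way. The part of the fibroblast markers in the lower serpins was not tested.

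Scaling the arrays on their spike-in spots moved the median of all genes to 0.68 at 21% O2 and 0.74 at 5% O2, and the serpin medians to -0.09 and -0.29. The serpins at least 2-fold apart were then 4 higher and 5 lower at 21% O2, and 5 higher and 5 lower at 5% O2. Serpina3n, Serpinb9, Serpinf1 and Serping1 were at least 2-fold lower at both oxygen levels on either scaling, while Serpinb1a, Serpinb7 and Serpine2 were under 2-fold at both with the spike-in scaling. At 21% O2 Serpina3f and Serpinb6b also were, and at 5% O2 Serpina3g (-0.39) and Serpina3m (-0.75).

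**Figure D5:**
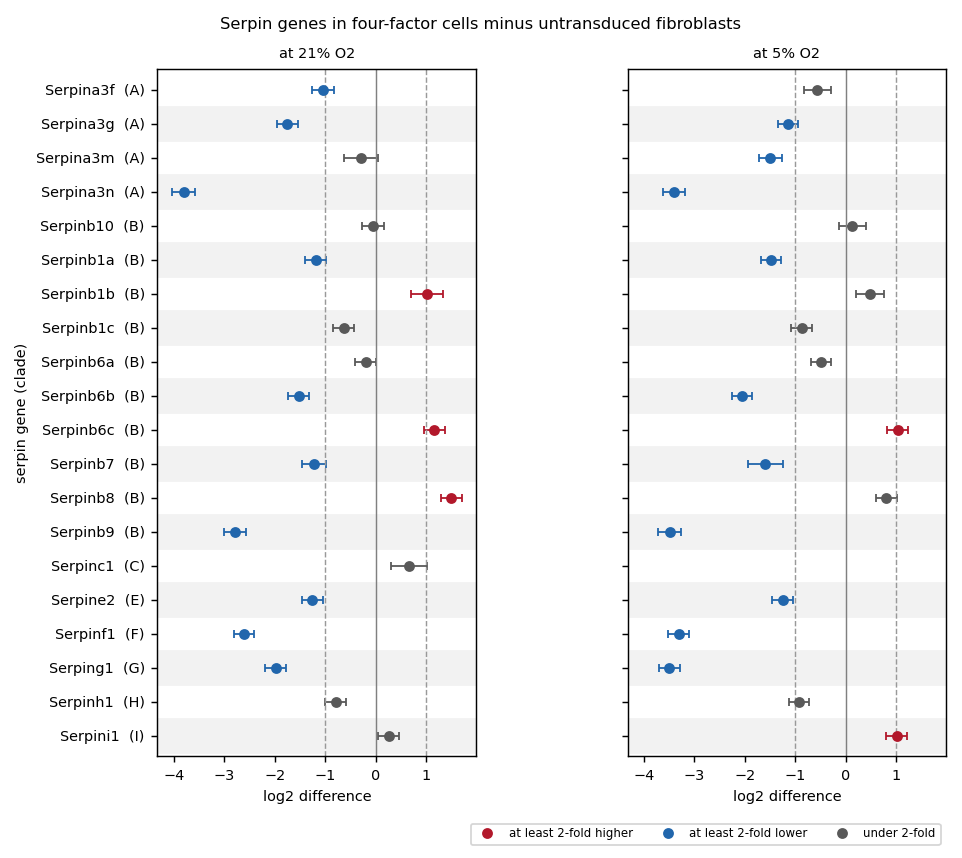
Log2 difference of each measured serpin in four-factor cells minus untransduced fibroblasts (horizontal axis) at 21% O2 (left) and 5% O2 (right). Points compare 1 array with 1 array, bars are the spot error and dashed lines 2-fold; Serpina3n (-3.81 at 21% O2, -3.40 at 5% O2), Serpinb9, Serpinf1 and Serping1 lie farthest to the left, and Serpinb8 and Serpinb6c lie right of 0 in both panels.

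Serpinb9, an inhibitor of granzyme B that shields cells from cytotoxic granules, had levels of -5.12 in four-factor cells at 5% O2 and -4.61 in four-factor cells at 21% O2. In untransduced fibroblasts it had -1.63 at 5% O2 and -1.83 at 21% O2. Four-factor cells were lower by 6.90-fold at 21% O2 and by 11.3-fold at 5% O2, and both probes of the gene went the same way. With normexp correction the differences were -1.83 and -1.98. Serpinb6b, an inhibitor of granzyme A in mice, differed by -2.06 at 5% O2, or 4.16-fold, and by -1.53 at 21% O2 between four-factor and untransduced cells, with a level of -0.77 on the four-factor array at 21% O2 against 0.76 on the untransduced one, and with the spike-in scaling the value at 21% O2 was -0.83. Serpinb6c, a close relative, went the other way by 1.16 ± 0.20 at 21% O2 and 1.03 ± 0.20 at 5% O2. Serpinb6a, an inhibitor of cathepsin G, differed by -0.20 at 21% O2 and -0.50 at 5% O2.

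Serpinb1a, an inhibitor of neutrophil elastase, had levels of 1.14 and 1.46 on the four-factor arrays (5%, 21% O2), against 2.63 and 2.65 on the untransduced arrays (5%, 21% O2). It differed by -1.48 at 5% O2 and -1.19 at 21% O2. Its weak relative Serpinb1b was 1.02 ± 0.32 higher in four-factor cells at 21% O2, and 0.35 with normexp correction. Probes of such close relatives may pick up one another's transcripts, so values within the Serpinb1, Serpinb6, Serpinb9 and Serpina3 groups are uncertain to that extent.

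Proteases that clade B serpins inhibit were set beside them from lists. Of the granule proteases, Gzmb and Elane were above background on no array. By oxygen, 0 of the 10 measured on both four-factor arrays were at least 2-fold apart, and in untransduced fibroblasts 0 of 2 were higher and 1 lower. Four-factor against untransduced cells had 0 higher and 2 lower of 3 at 21% O2, and 0 higher and 0 lower of 2 at 5% O2. Cma1, a mast cell chymase, differed by -1.44 and Gzmd by -1.22 between four-factor and untransduced cells at 21% O2. Mast, T and NK cell markers summed to 0.09 and 0.11 on the four-factor arrays (5%, 21% O2), and 0.10 and 0.19 on the untransduced arrays (5%, 21% O2). Of 12 lysosomal cathepsins, targets of some intracellular serpins, 0 were at least 2-fold apart by oxygen in four-factor cells and 1 was higher at 5% O2 in untransduced fibroblasts, Ctss (1.42). Between four-factor and untransduced cells 0 were higher and 4 lower at 21% O2, and 1 higher and 6 lower at 5% O2. Beside both lists, 11.8% of all genes were higher and 16.6% lower at 21% O2, and 17.1% and 20.0% at 5% O2. By oxygen the shares were 1.25% and 1.07% in four-factor cells, and 2.54% and 1.72% in untransduced fibroblasts. Ctss, a cathepsin of antigen-presenting cells, differed by -5.20 at 21% O2 and -6.19 at 5% O2, Ctsk by -2.11 and -3.11, Ctso by -1.56 and -2.40, and Ctsc by 0.96 and 1.45.

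Clade A was the most uneven group, with 4 of 20 genes above background on every array. Serpina3g, a cathepsin inhibitor induced in activated leukocytes, had levels of 1.25 in four-factor cells at 5% O2 and 1.77 in four-factor cells at 21% O2. In untransduced fibroblasts it had 2.40 at 5% O2 and 3.52 at 21% O2. Its oxygen difference was -1.12 ± 0.20 in untransduced fibroblasts and -0.52 ± 0.20 in four-factor cells, and four-factor cells differed from untransduced cells by -1.75 ± 0.20 at 21% O2 and -1.15 ± 0.20 at 5% O2, the second under 2-fold with spike-in scaling. Serpina3n, an acute-phase antichymotrypsin that inhibits granzyme B, had levels of -4.72 and -5.07 on the four-factor arrays (5%, 21% O2), against -1.32 and -1.26 on the untransduced arrays (5%, 21% O2). The cultures did not overlap, with four-factor cells lower by 14.0-fold at 21% O2 and by 10.6-fold at 5% O2. With normexp correction the differences were -2.58 and -2.26. Its oxygen differences were 0.36 ± 0.24 in the four-factor culture and -0.05 ± 0.21 in the untransduced one.

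Weaker neighbours of the Serpina3 group on chromosome 12 did not move together. Serpina3f differed by -1.18 ± 0.27 between 5% and 21% O2 in untransduced fibroblasts and by -0.70 ± 0.22 in four-factor cells. Serpina3m differed by 1.42 ± 0.34 in untransduced fibroblasts and by 0.21 ± 0.23 in four-factor cells. With normexp correction the untransduced values were -0.61 for Serpina3f and 0.55 for Serpina3m. Between four-factor and untransduced cells Serpina3f differed by -1.04 at 21% O2 and Serpina3m by 2.82-fold at 5% O2, both lower. Both were under 2-fold in other settings. Serpina3f lay between -1.04 and -0.14 over the alternatives and was under 2-fold with normexp, quantile and spike-in scaling and with the mean of probes, and Serpina3m was -0.71 with normexp and -0.75 with spike-in scaling. Serpina3c was above background in untransduced fibroblasts at 5% O2 only, at -4.53, at least 1.32-fold higher than at 21% O2. It was at least 5.16-fold lower in four-factor than in untransduced cells at 5% O2. There 99.2% of genes above background in untransduced cells only were at least 2-fold lower by a bound. The antitrypsin gene name Serpina1a was not among the array's names, and its relative Serpina1d was above background only on the four-factor array at 5% O2, at -6.44. Serpina9 and Serpina10 were above background in four-factor cells only, and Serpina3a and Serpina3b on 1 four-factor array each. The passing levels of these genes and of Serpina1d lay below the weakest that passed on the untransduced arrays (-5.13 at 5% O2, -4.93 at 21% O2). At 21% O2 Serpina10 had -6.08 in four-factor and -6.01 in untransduced cells, and Serpina9 -5.81 and -5.86. These 5 genes thus cannot be called particular to four-factor cells.

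Protease inhibitors outside the superfamily were compared from a further list. At 5% against 21% O2, 1 of 14 measured was at least 2-fold higher and 1 lower in four-factor cells, beside 1.25% and 1.07% of all genes. In untransduced fibroblasts 0 of 11 were apart, beside 2.54% higher and 1.72% lower. Four-factor against untransduced cells had 1 higher and 5 lower of 10 at 21% O2, beside 11.8% and 16.6% of all genes. At 5% O2, 2 were higher and 8 lower of 13, beside 17.1% and 20.0%. Wfdc2, a secreted whey acidic protein family member, was 5.91 higher in four-factor cells at 5% O2. Itih5, an inter-alpha-trypsin inhibitor chain, differed by -4.06 at 21% O2 and -4.35 at 5% O2, Reck, a membrane inhibitor of metalloproteases, by -2.59 and -3.27, and Itih2 by -2.87 and -3.09.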

How the data were processed

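RNA of 4 cultures was labelled with Cy3 and hybridised to 1-colour Agilent arrays, per the labels. Intensities are the deposited processed signals, background-subtracted by Feature Extraction 9.5.3.1 per the file headers. The deposited log2 table was within 0.01 of log2 processed signal minus each array's 75th percentile for 99.9% of probes (medians -3.86, -3.86, -3.69 and -3.70 in the order four-factor 5% and 21%, untransduced 5% and 21% O2), and the same value was computed here. Outlier spots were dropped (65 to 115 per array, 0 on serpin probes, 0 saturated), replicate spots averaged, and a gene taken as its brightest probe. Spots of 1 probe varied by an SD of 0.0673 to 0.114 (log2). Probe positions are those of the files (mm8). By accession 62 of 73 probes matched the RefSeq gene table, all with the same symbol. Of 19 genes with 2 probes, the probes of 7 were measurable in the four-factor oxygen comparison and 1 pair disagreed in direction, as did 1 pair of 4 (Serpinc1) between four-factor and untransduced cells at 21% O2.

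Members, lists and the rule for named genes were chosen with earlier results of these data known. Named were members at least 2-fold apart in any comparison, 14 fixed members, the brightest of each clade and up to 4 genes per partner list. Counting was tested on simulated data with planted differences well beyond the threshold and every gene above background. That checks the counting step only and says nothing about weak genes or those near 2-fold. Alternatives were normexp (limma 3.58.1, offset 50), quantile and spike-in scaling, no filter, mean of probes, outliers kept, the deposited table and 1.5-fold. Counts cover all 54 members, of which 1 is not reported or drawn here. Python 3.11.15 and R 4.3.3 were used. The number of arrays limits the precision.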

Additional observations from a re-analysis of the deposited data

How the results depend on the processing

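No serpin difference of at least 2-fold turned its direction under any alternative run. Leaving out a replicate was not possible with 1 array per condition, and no paired analysis was possible because each group has 1 array. With normexp correction, serpins at least 2-fold lower at 5% O2 numbered 0 in the four-factor culture and 2 in the untransduced one. Over all genes 0.205% and 0.865% were then lower, against 1.07% and 1.72% in the main run. Serpins at least 2-fold higher at 5% O2 in untransduced fibroblasts numbered 1, beside 1.28% of all genes. Higher in four-factor than in untransduced cells at 5% O2 was 1 serpin, beside 14.3% of all genes. With spike-in scaling, 5 were lower in four-factor than in untransduced cells at 21% O2, and 5 were higher and 5 lower at 5% O2. Over all genes this scaling gave 5271 higher and 1220 lower at 21% O2, beside 1807 and 2533, and 6158 higher and 1529 lower at 5% O2, beside 2648 and 3097. With no filter on dim probes, 3 were higher and 6 lower by oxygen in four-factor cells, 5 higher and 9 lower in untransduced fibroblasts, 7 higher and 30 lower between four-factor and untransduced cells at 21% O2, and 8 higher and 29 lower at 5% O2. Over all genes this setting gave 907 higher and 908 lower, 1076 and 1110, 3050 and 9852, and 4070 and 10057 in the same order, of 27729 to 27740 genes. With the mean of all probes, 3 were lower at 5% O2 in untransduced fibroblasts, beside 1.75% of all genes. At 1.5-fold, 8 were lower at 5% O2 in four-factor cells, beside 5.69% of all genes. Apart from normexp and fewer or more genes counted, the cause was not tested. Of 89 measured serpin differences, 26 moved by over the spot error with normexp, 41 with spike-in scaling, 20 with the mean of probes and 2 with quantile normalization, and 0 with the other settings. Signal over background limits the weak genes, above all Serpinb7, Serpinb10, Serpinb11, Serpina3f and Serpina3m.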

Other observations

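Endothelial markers summed to 1.56 and 1.26 multiples of the 75th percentile on the four-factor arrays (5%, 21% O2), and to 2.09 and 2.17 on the untransduced arrays (5%, 21% O2). Gene by gene they were mixed. Of 4 measured, 1 (Tek) was at least 2-fold higher and 2 (Kdr and Erg) lower in four-factor cells at each oxygen level. Tek was 2.61 higher at 21% O2 and 1.27 higher at 5% O2, while Erg differed by -4.19 and -4.06. Pecam1 and Tie1 were above background on no array. Trophoblast markers, checked because placenta expresses many serpins, summed to 0.23 and 0.28 on the four-factor arrays (5%, 21% O2), and to 0.20 and 0.22 on the untransduced arrays (5%, 21% O2). Markers of pluripotent cells summed to 0.45 and 0.36 on the four-factor arrays (5%, 21% O2), and to 1.34 and 1.01 on the untransduced arrays (5%, 21% O2). Dppa5a was the 1 of 7 on the array above background on the untransduced arrays, and it differed by -1.78 at 21% O2 and -2.25 at 5% O2 between four-factor and untransduced cells. Nanog, Zfp42, Tdgf1 and Utf1 were above background on four-factor arrays only, and Dppa3 and Esrrb on none.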
